A study of Mus musculus with 20 samples.

Results

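Accessibility of chromatin was examined at 8 genes of the T lineage programme, Tcf7, Lef1, Bcl11b, Bcl11a, Notch1, Notch2, Tox and Satb1, in mouse LSK cells, the Lin-cKit+Sca1+ bone marrow fraction that holds haematopoietic stem cells and early progenitors. A peak was given to a gene when its centre lay inside that gene, or else when that gene had the nearest boundary among protein-coding genes of mm10, and the shortest gene was taken where several overlapped. This gave 255 of the 125343 peaks, at 8 of the 17794 genes that had a peak. Bcl11a held 81 of them, Satb1 41, Tox 35, Notch2 29, Lef1 25, Notch1 18, Tcf7 14 and Bcl11b 12. Of these peaks, 253 had enough counts to be tested, and the 2 that did not were both at Bcl11a.

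The assay was ATAC-seq, in which a transposase cuts open DNA and the reads in a peak measure how accessible it is. There were 5 genotypes with 4 libraries each, every library made from a pool of 2 mice of the C57Bl/6J strain aged 3 to 4 months. WT mice carried wild-type alleles with Vav-Cre, a recombinase driven in blood cells. The 3 Idh mutant groups carried the same Cre with 1 Cre-activated (LSL) copy of a mutant gene: R132H in Idh1, or either R140Q or R172K in Idh2. The fifth group was Tet2-/-, whose label names no Cre, so that Cre and genotype cannot be told apart there. Libraries held 10.5 M to 27.89 M counts in peaks. Levels are CPM, counts scaled by TMM to a common library total, and fold changes come with the standard error (SE) and the Benjamini-Hochberg adjusted p of edgeR's quasi-likelihood test over all 123908 tested peaks. Peaks under an adjusted p of 0.05 are called raised or lowered.

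Mutant IDH enzymes make 2-hydroxyglutarate, which inhibits TET enzymes, and TET2 oxidises methylated cytosine in DNA. Tcf7 and Lef1 encode the HMG-box factors TCF1 and LEF1, which act early in T cell development and bind beta-catenin. Notch receptors start the T lineage programme in the thymus, Bcl11b fixes commitment to it, and its relative Bcl11a serves lymphoid and stem cells. Tox and Satb1 encode chromatin-binding factors of developing T cells. LSK cells are not T cells, so the loci are described here before any commitment.

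The promoters of the 3 genes that mark the lineage are shown because they differ in CpG content and lie beside the peaks described next. They are RefSeq windows of GRCm38.p6, 250 bases before to 50 after a start site, printed 5′ to 3′ on the strand of the gene with CpG dinucleotides in capitals. They lie at chr11:52282965-52283264 (minus strand), chr3:131110047-131110346 (plus strand) and chr12:108003365-108003664 (minus strand).
Tcf7: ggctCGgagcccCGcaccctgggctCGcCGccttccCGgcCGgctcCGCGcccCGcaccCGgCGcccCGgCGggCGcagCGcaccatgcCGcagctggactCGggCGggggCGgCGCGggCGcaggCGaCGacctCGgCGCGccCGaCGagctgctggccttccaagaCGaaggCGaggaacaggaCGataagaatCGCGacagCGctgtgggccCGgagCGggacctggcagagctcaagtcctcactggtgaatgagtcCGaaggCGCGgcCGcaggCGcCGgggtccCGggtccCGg
Lef1: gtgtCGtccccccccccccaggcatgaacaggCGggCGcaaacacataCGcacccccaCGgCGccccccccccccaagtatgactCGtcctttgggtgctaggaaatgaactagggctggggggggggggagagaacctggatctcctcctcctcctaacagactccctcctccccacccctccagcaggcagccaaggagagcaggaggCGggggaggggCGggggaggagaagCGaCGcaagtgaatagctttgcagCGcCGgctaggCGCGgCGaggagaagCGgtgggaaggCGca
Bcl11b: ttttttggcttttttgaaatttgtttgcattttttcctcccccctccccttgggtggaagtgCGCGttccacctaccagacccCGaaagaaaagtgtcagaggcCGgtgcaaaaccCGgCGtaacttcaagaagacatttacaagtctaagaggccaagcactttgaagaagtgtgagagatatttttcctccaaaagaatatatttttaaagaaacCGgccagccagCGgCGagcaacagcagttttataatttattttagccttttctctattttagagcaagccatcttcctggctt
The Tcf7 window held 45 CpG and lay wholly inside a peak. The Tcf7 window also lay inside the gene, whose 5′ boundary is at 52283383, so it is not sequence upstream of the gene. The Lef1 window held 18 CpG, and 103 of its bases lay in a peak. The Bcl11b window held 9 CpG and overlapped no peak, and the nearest peak centre lay 0.66 kb from the start site. The Bcl11b window lay inside the gene, whose 5′ boundary at 108004145 was covered by the peak chr12:108003883-108004444. One window was shown of 2 for Tcf7 and of 4 for Lef1. The other Tcf7 window held 17 CpG, with 184 bases in a peak, and a Lef1 window farther into the gene held 5 CpG, 2 CTTTGA and no peak. The median over 32817 promoters was 7 CpG. The letters CTTTGA, which TCF and LEF factors prefer, occurred on either strand in 16% of all promoters, among these 3 windows only in that of Bcl11b, once. The RBPJ letters GTGGGAA, those of the Notch effector, occurred in 6.39% of promoters and once in the Lef1 window.

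In Idh2 R172K cells, 56 of the 253 tested peaks were raised and 88 lowered, a called share of 56.9% against a background of 53% over all tested peaks (25.1% raised and 27.9% lowered). The total share called was therefore near the background. The direction and size leaned downward: the median log2 fold change was -0.23 for the peaks of the 8 genes and 0.01 for all peaks. With cyclic loess scaling these were -0.13 and 0.02. By annotated class, 18.8% of 96 intron peaks were raised and 34.4% lowered, beside 22.6% and 30.8% of all intron peaks. For 119 intergenic peaks the shares were 25.2% and 35.3%, beside 22.1% and 30.1%. For 13 promoter peaks they were 30.8% and 15.4%, beside 39.8% and 15%. More than 2-fold changes counted 47 lowered and 12 raised peaks, beside backgrounds of 13.2% and 3.63%. The genes differed from each other. Lef1 had 15 lowered and 0 raised of 25, Bcl11b 5 and 0 of 12, and Notch2 14 and 2 of 29. Tox had 16 raised and 7 lowered of 35, while Tcf7 had 4 and 3 of 14, Bcl11a 20 and 29 of 79 tested, Notch1 5 and 4 of 18, and Satb1 9 and 11 of 41. The balance at Notch1 and Satb1 depended on the scaling: Notch1 had 1 raised and 5 lowered with library size only and 3 and 4 with cyclic loess, and Satb1 had 12 and 11 with cyclic loess.

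**Figure D1:**
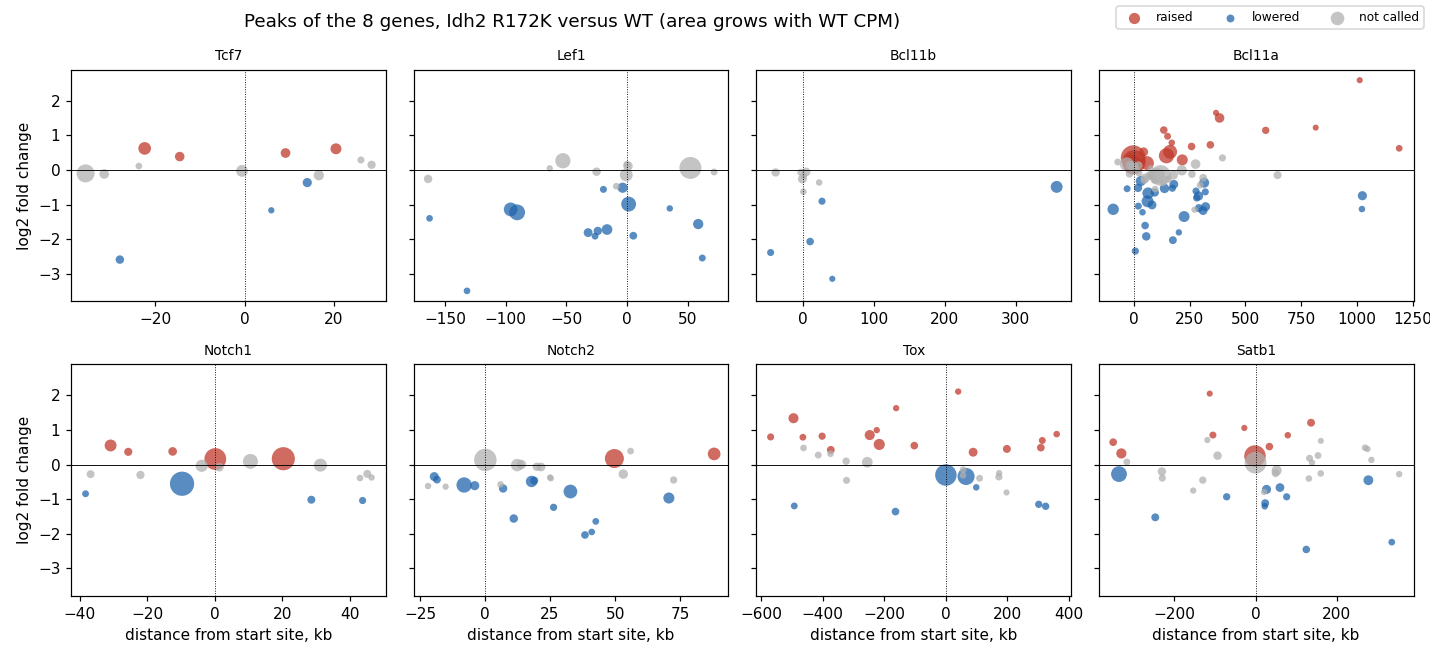
Log2 fold change of each tested peak in Idh2 R172K versus WT (vertical axis) against its distance from the nearest start site of its gene in kb (horizontal axis, scaled per gene). Point area grows with the WT level, and colour gives the call. Lef1 has 15 lowered and 0 raised peaks, and the peaks far upstream of Tox are mostly raised.

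Summed over its peaks, accessibility fell at Lef1, Bcl11b, Notch2 and Notch1. Among all 17775 gene sums, 48.5% were called in this comparison, and 4 of the 8 here. The share of all gene sums whose libraries did not overlap was not computed. The Lef1 sum was 178.7, 159.6, 172.2 and 171.2 CPM in the WT libraries and 117.9, 126, 114 and 114.6 CPM in Idh2 R172K. The groups did not overlap, with a log2 fold change of -0.53 (SE 0.0571, adjusted p = 2.65e-08). The Bcl11b sum was 29.26, 30.41, 32.73 and 30.67 CPM in WT and 20.92, 22.02, 19.85 and 21.46 CPM in Idh2 R172K, again without overlap (log2 fold change -0.55, SE 0.0565, adjusted p = 7.53e-09). The Notch2 sum lay between 183 and 196.6 CPM in WT and between 150.9 and 161.5 CPM in Idh2 R172K (log2 fold change -0.26, SE 0.0332, adjusted p = 2.73e-07). For Notch1 the fall was -0.11 (SE 0.0395, adjusted p = 0.0189), and it was not called without WT replicate 1 (adjusted p = 0.0882) or Idh2 R172K replicate 4 (adjusted p = 0.0847), nor with cyclic loess scaling (adjusted p = 0.0566). The sums of Tcf7 (89.94 CPM in WT, 91.41 CPM in Idh2 R172K), Bcl11a, Tox and Satb1 were not called, with adjusted p from 0.116 to 0.655. At Tcf7, Bcl11a, Tox and Satb1, peaks called in both directions thus stood beside a sum that was not called. In bulk cells, fewer cells of a type and less accessibility per cell cannot be told apart.

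**Figure D2:**
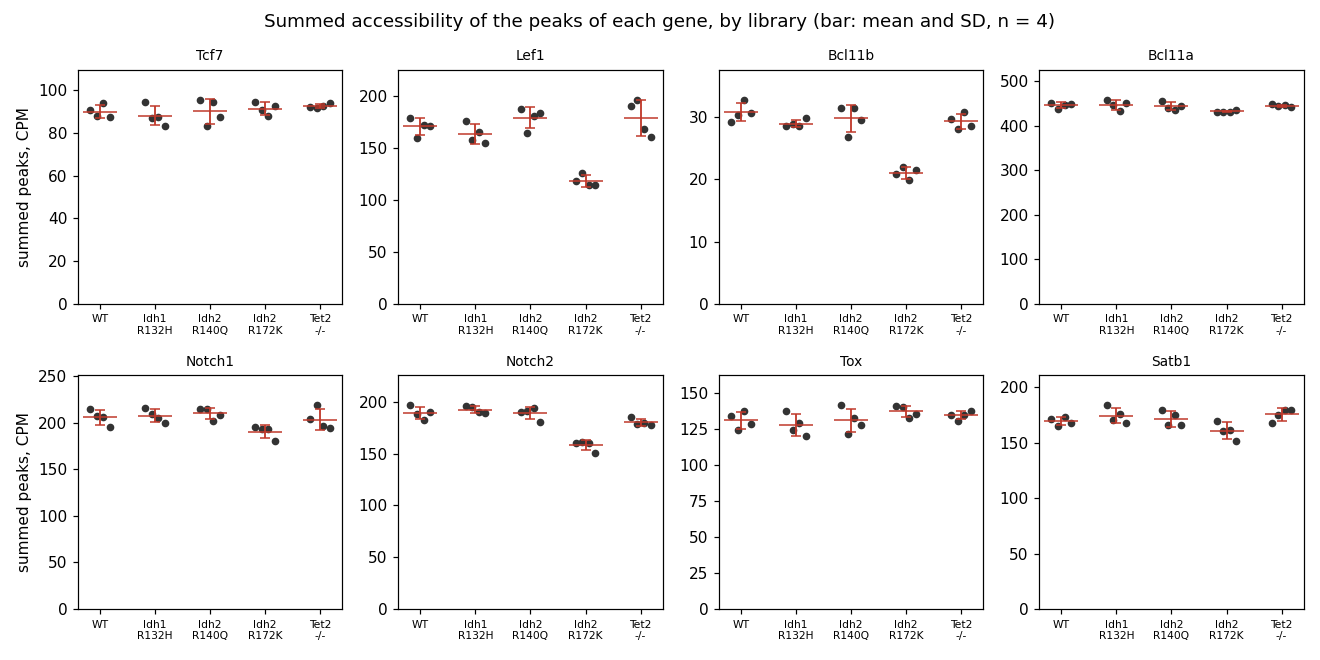
Summed CPM of the peaks of each gene (vertical axis, from 0) in each of the 20 libraries by genotype (horizontal axis). Points are libraries and bars the mean and SD of 4. The Idh2 R172K libraries lie below every WT library at Lef1, Bcl11b, Bcl11a, Notch1 and Notch2, of which the Bcl11a difference was not called. The share of all gene sums without overlap was not computed.

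At Lef1 the losses lay upstream and inside the gene, while peaks at the first start sites were not called. The peak with the lowest p, chr3:131139438-131140270 inside the gene, read 6.524, 6.343, 7.753 and 7.343 CPM in WT and 2.039, 2.143, 2.514 and 1.633 CPM in Idh2 R172K. Every mutant library lay below every WT library (log2 fold change -1.72, SE 0.129, adjusted p = 1.22e-14). Such separation was common: of all tested peaks, 23.5% lay wholly below WT in Idh2 R172K and 20.4% wholly above. A pair of strong upstream peaks fell together. One, 90.62 kb upstream at chr3:131019286-131020075, went from 18.66 ± 1.88 to 8.15 ± 0.691 CPM (SD, n = 4), a log2 fold change of -1.22 (SE 0.0941, edgeR adjusted p = 3.46e-14). Its neighbour at chr3:131013942-131014780 averaged 13.5 CPM in WT and 6.06 CPM in the mutant (adjusted p = 3.21e-09). The highest Lef1 peak, in intron 11 at chr3:131208115-131209172, read 35.19 to 40.61 CPM in WT and 37.52 to 42.67 CPM in Idh2 R172K and was not called (adjusted p = 0.538). The start-site peak at chr3:131110244-131110525, which overlaps the printed promoter, read 1.65 CPM in WT and 1.92 CPM in Idh2 R172K (adjusted p = 0.48).

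Tcf7 changed in both directions within short distances. The peak 27.96 kb upstream, chr11:52310748-52311205, read 3.452, 2.946, 3.548 and 3.528 CPM in WT and 0.5001, 0.4871, 0.5545 and 0.6757 CPM in Idh2 R172K. This separated the groups fully (log2 fold change -2.58, SE 0.203, adjusted p = 4.52e-14). The peak 22.4 kb upstream, chr11:52305051-52305787, moved the other way, reading 10.32 to 11.4 CPM in WT and 15.1 to 18.12 CPM in Idh2 R172K (log2 fold change 0.63, SE 0.0808, adjusted p = 2.05e-08). The intron 2 peak at chr11:52261847-52262439 was also raised, averaging 7.53 CPM in WT and 11.6 CPM in the mutant (adjusted p = 6.63e-07). The promoter peak was not called (9.097 CPM in WT, 8.887 CPM in Idh2 R172K, adjusted p = 0.874), nor was the highest Tcf7 peak, 35.64 kb upstream (24.97 CPM in WT, adjusted p = 0.276).

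**Figure D3:**
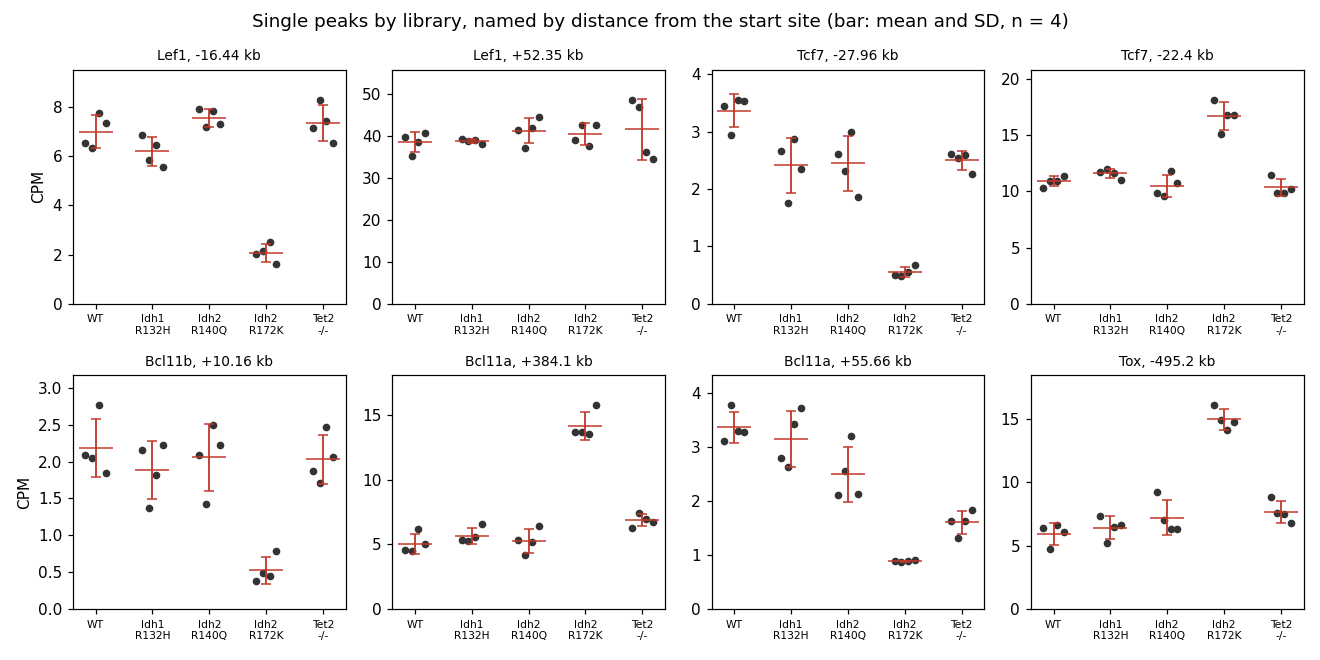
CPM of 8 single peaks (vertical axis, from 0) in each of the 20 libraries by genotype (horizontal axis), with the mean and SD of 4. Titles give the distance from the nearest start site. Except for the highest Lef1 peak at 52.35 kb, the panels show called peaks picked for the lowest p of their gene and direction. The Idh2 R172K libraries stand apart from WT in each of these, so that separation is not typical of the loci.

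The zinc finger genes Bcl11b and Bcl11a behaved differently from each other. At Bcl11b, the intron 1 peak chr12:107992981-107993525 read 2.086, 2.046, 2.76 and 1.846 CPM in WT and 0.3847, 0.4871, 0.4436 and 0.7884 CPM in Idh2 R172K. The libraries did not overlap (log2 fold change -2.06, SE 0.245, adjusted p = 2.88e-09). Its highest peak, 357.7 kb downstream of the start, was lowered, with means of 9.35 CPM in WT and 6.69 CPM in the mutant (adjusted p = 6.19e-05). At Bcl11a the strongest peak, chr11:24077174-24078163, lay inside the gene, 3.027 kb before the start site used. It rose from 49.87 ± 2.92 to 63.9 ± 2.55 CPM (SD, n = 4, log2 fold change 0.36, edgeR adjusted p = 3.27e-06). Far downstream, chr11:24464395-24465184 at 384.1 kb read 4.552, 4.501, 6.176 and 5.045 CPM in WT and 13.73, 13.73, 13.53 and 15.77 CPM in Idh2 R172K. All mutant libraries were above all WT libraries (log2 fold change 1.51, SE 0.109, adjusted p = 4.33e-15). The peak 225.1 kb downstream, chr11:24305029-24306557, averaged 7.52 CPM in WT and 2.98 CPM in Idh2 R172K, a fold change of -1.34 on the log2 scale (adjusted p = 7.05e-12).

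Of the receptors, Notch1 and Notch2 had strong start-site peaks in both genotypes. The Notch1 start-site peak read 35.41 to 40.21 CPM in WT and 41.01 to 44.47 CPM in Idh2 R172K, a small rise (log2 fold change 0.16, adjusted p = 0.0223), which was not called with library size or cyclic loess scaling (adjusted p = 0.195 and 0.744), nor without WT replicate 3 or 4 or Idh2 R172K replicate 1 (adjusted p from 0.0559 to 0.0789). The peak 9.734 kb upstream, chr2:26513058-26514054, was the highest at Notch1. It read 50.94, 46.69, 47.5 and 45.12 CPM in WT and 33.12, 33.8, 33.27 and 29.62 CPM in Idh2 R172K, without overlap (log2 fold change -0.55, SE 0.0712, adjusted p = 1.93e-08). The Notch2 start-site peak, 40.15 CPM in WT and 44.11 CPM in Idh2 R172K, was not called (adjusted p = 0.0591). Its intron 2 peak chr3:98051676-98052198 read 2.103 to 2.314 CPM in WT and 0.3327 to 0.7884 CPM in Idh2 R172K (log2 fold change -2.03, SE 0.217, adjusted p = 2.27e-10).

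At Tox the promoter peak fell, while the called peaks upstream of the gene were mostly raised. The promoter peak, the highest of the gene, fell from 36.59 ± 2.05 to 29.6 ± 1.67 CPM (SD, n = 4, log2 fold change -0.30, edgeR adjusted p = 0.000664). Of 18 peaks upstream of the gene, 102.7 to 569.5 kb away, 10 were raised and 2 lowered, beside 25.1% and 27.9% of all tested peaks. Of 13 peaks inside the gene, 3 were raised and 4 lowered, and of 4 downstream, 3 were raised and 1 lowered. The upstream peak at chr4:7485317-7486070 read 6.373, 4.706, 6.636 and 6.112 CPM in WT and 16.08, 14.9, 14.12 and 14.81 CPM in Idh2 R172K. The groups did not overlap (log2 fold change 1.34, SE 0.115, adjusted p = 1.08e-12). At Satb1 the start-site peak, 37.98 CPM in WT and 39.27 CPM in Idh2 R172K, was not called (adjusted p = 0.502). Distal Satb1 peaks went both ways: chr17:51687158-51687618 fell by 2.45 on the log2 scale (means 2.13 and 0.418 CPM, adjusted p = 6.01e-10), and chr17:51675356-51676027 rose by 1.21 (means 2.53 and 5.702 CPM, adjusted p = 2.35e-09).

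By the distance that the deposited annotation gives to the nearest start site, 28 peaks of the 8 genes lay within 2 kb, of which 14.3% were raised and 28.6% lowered, beside 35.9% and 17% of all peaks at that distance. From 2 to 50 kb there were 152 peaks, 23% raised and 38.2% lowered, beside 22.8% and 29.6% of all. From 50 to 200 kb the 64 peaks had 26.6% raised and 31.2% lowered, beside 22% and 33.2%. Of the 9 peaks farther away, 0 were raised and 2 lowered, beside 33.9% and 25% of all peaks at that distance. The nearest start site of the annotation is often not that of the member gene. Over 200 kb from the start site of the member gene itself lay 63 peaks, 22 raised and 20 lowered. No share over all peaks was computed for that measure. By WT level, 34 peaks had 10 CPM or more, of which 12 were raised and 9 lowered (35.3% and 26.5%), beside 42.8% and 16.9% of all peaks at that level. The 108 peaks of 2 to 10 CPM had 23.1% raised and 42.6% lowered, beside 23.4% and 34.5%, and the 111 below 2 CPM had 17.1% and 29.7%, beside 18.7% and 26.6%.

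In Tet2-/- cells, 12 of the 253 peaks were called, 4 raised and 8 lowered, or 4.74% against a background of 3.1% (0.785% raised and 2.32% lowered). No gene sum was called, with a background of 1.51%. All 4 raised peaks lay downstream of Bcl11a and 0 inside it, at a median of 376 kb from its start site. They bear its name because its boundary was the nearest. The lowered ones were 2 each at Lef1, Bcl11b and Bcl11a and 1 each at Tcf7 and Satb1. The Bcl11a intron 2 peak chr11:24136158-24136562, 55.66 kb into the gene, read 3.11, 3.765, 3.285 and 3.282 CPM in WT and 1.634, 1.315, 1.622 and 1.84 CPM in Tet2-/-. The groups did not overlap (log2 fold change -1.05, SE 0.157, adjusted p = 2.86e-05), and the call held in every alternative run for it. Of all tested peaks, 5.12% lay wholly below WT in Tet2-/-. In Idh2 R172K the same peak read 0.8767 to 0.901 CPM (log2 fold change -1.91 against the same WT libraries, adjusted p = 1.3e-11).

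Many Tet2-/- calls were lost when 1 library was left out, a step that also weakens the test. Leaving out WT replicate 1 left 1 raised and 3 lowered, WT replicate 2 left 0 and 3, and Tet2-/- replicate 3 left 1 and 4. Without WT replicate 4 or Tet2-/- replicate 1 there were 4 lowered, and without Tet2-/- replicate 4 there were 3. The Bcl11a peak at 384.1 kb read 6.302 to 7.452 CPM in Tet2-/- (log2 fold change 0.46, adjusted p = 0.0149) and was not called without WT replicate 1 (adjusted p = 0.0787) or 2 (adjusted p = 0.0825). The Lef1 peak chr3:131214438-131215716 read 5.716 to 6.676 CPM in WT, 3.968 to 5.65 CPM in Tet2-/- (log2 fold change -0.41, adjusted p = 0.0325) and 1.847 to 2.478 CPM in Idh2 R172K (log2 fold change -1.56, adjusted p = 6.29e-13). Its Tet2-/- call was lost without WT replicate 1, 2 or 4 or without Tet2-/- replicate 1, 3 or 4, with adjusted p from 0.0553 to 0.146. The log2 fold change of this peak stayed between -0.51 and -0.34 when any 1 library was left out.

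**Figure D4:**
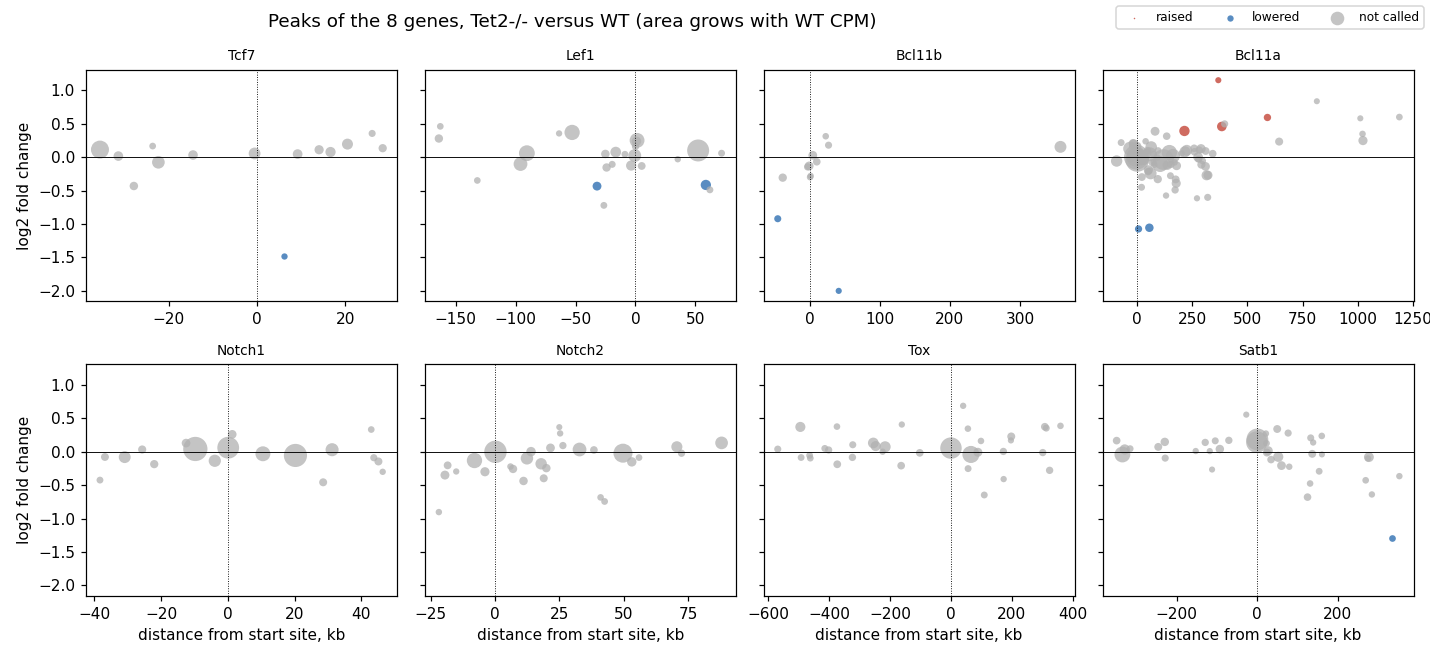
Log2 fold change of each tested peak in Tet2-/- versus WT (vertical axis) against its distance from the nearest start site in kb (horizontal axis, scaled per gene), drawn as for Idh2 R172K. Of the coloured peaks, 4 are raised, all downstream of Bcl11a, and 8 are lowered.

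In Idh1 R132H and Idh2 R140Q cells, 0 of the 253 peaks and 0 of the 8 gene sums were called by edgeR, and 0 peaks by DESeq2. The backgrounds were 0.0274% and 0.0153%. At an unadjusted p under 0.05 there were 14 and 13 peaks, with backgrounds of 5.07% and 5.5%. For gene sums the backgrounds were 0.0281% and 0.00563%. Set directly against Idh2 R140Q, a change in the same enzyme, Idh2 R172K had 48 raised and 87 lowered peaks, against a background of 47% (21.5% raised and 25.5% lowered), and 44.1% for gene sums. Lef1 summed 164.2 to 187 CPM in Idh2 R140Q and 114 to 126 CPM in Idh2 R172K (log2 fold change -0.60, SE 0.0571, adjusted p = 3.66e-09). Against Tet2-/-, Idh2 R172K had 43 raised and 83 lowered peaks, with a background of 44.3% (20.1% raised and 24.1% lowered), and 43.5% for gene sums. There the log2 fold change of the sum was -0.60 for Lef1 (SE 0.057, adjusted p = 4.4e-09) and -0.49 for Bcl11b (SE 0.0563, adjusted p = 8.17e-08).

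Lists of related genes were counted the same way, with members removed. In Idh2 R172K, 108 of 399 peaks of the Notch pathway were raised and 121 lowered (27.1% and 30.3%), near the shares over all peaks, with a median log2 fold change of -0.01. An intronic peak of Maml3, a Notch coactivator, fell by 2.49 on the log2 scale (adjusted p = 9.59e-15), and one of Jag2, a ligand, fell by 3.14 (adjusted p = 3.31e-13). Other T lineage genes had 64 raised and 95 lowered of 347 (18.4% and 27.4%, median -0.07). The called share of 45.8% was below the background. Lowered peaks included those of Cd247, the zeta chain of the T cell receptor (log2 fold change -1.16, adjusted p = 2.32e-11), and Gata3, a T lineage transcription factor (log2 fold change -1.77, adjusted p = 2.38e-10). Partners and relatives of TCF and LEF factors had 58 raised and 85 lowered of 244 (23.8% and 34.8%, median -0.04). Among these a peak 18248 bases outside Ctnnb1, which encodes beta-catenin, fell by 0.95 (adjusted p = 3.5e-13). The deposited annotation classes this peak as a promoter, although it lies outside that gene. A peak 34776 bases outside the corepressor gene Tle3 rose by 0.73 (adjusted p = 9.25e-12). In Tet2-/-, the called shares were 3.26% for the Notch pathway (2 raised, 11 lowered), 2.02% for T lineage genes (1 and 6) and 2.46% for TCF and LEF relatives (0 and 6), near the background of 3.1%.

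Markers of other cells moved too. Summed B cell marker peaks were 154.8 to 168.3 CPM in WT and 115 to 121.6 CPM in Idh2 R172K, with 5 of 6 markers having a peak and none at Cd79a, and 4 gene sums lowered. Mature T cell markers were 140.9 to 154.8 CPM in WT and 126 to 135.5 CPM in Idh2 R172K, with 5 of 7 having a peak and none at Cd3g and Cd8a. Of these, 1 gene sum was raised and 2 lowered: Cd5 averaged 46.33 CPM in WT and 25.25 CPM in Idh2 R172K, while Cd3e averaged 8.113 and 13.7 CPM. NK markers (3 of 3 with a peak) were 173.2 to 181.3 and 148.9 to 156.5 CPM, with 2 gene sums lowered. Erythroid markers (4 of 4 with a peak) were 158.7 to 167 CPM in WT and 174.6 to 179.1 CPM in Idh2 R172K, with 3 gene sums raised. Granulocyte and monocyte markers, 4 of 5 with a peak and none at Ly6g, were 107.8 to 122.1 and 105.6 to 121.3 CPM. Of their gene sums, 2 were lowered and 0 raised. LSK markers were 1380 to 1457 and 1420 to 1468 CPM, with all 8 having a peak, 3 gene sums raised and 2 lowered. Over all gene sums, 23.3% were raised and 25.2% lowered in Idh2 R172K. In Tet2-/- the B cell markers were 159.4 to 174.3 CPM. Their part in the results was not tested. Libraries also fell into 2 sets by the Xist peaks, present in every genotype. Within the low set, Idh2 R172K had 40 raised and 74 lowered of 253 peaks, beside 19.3% and 22.8% of all peaks. Within the high set it had 34 and 63 of 252, beside 15.9% and 18.9%. For Tet2-/- the balance differed: 4 raised and 2 lowered in the low set, beside 1.83% and 1.09% of all peaks, and 2 and 4 in the high set, beside 0.38% and 1.83%. The peaks raised in the low set were 3 at Lef1 and 1 at Satb1, with 0 at Bcl11a. The Notch1 sum was called in neither set (adjusted p = 0.0517 and 0.0807).

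Over the 20 libraries, the summed level of Lef1 ran most like that of Dusp5 (Pearson r = 0.978), BC034090 (0.974) and Dbx1 (0.968), among 7393 genes. Bcl11b was most like Dlgap2 (0.974), Rapgef5 (0.967) and Limch1 (0.964). Tcf7 was most like Tox (0.891), another of the 8 genes, then Rora (0.878) and Cacng5 (0.814). The libraries share genotypes, so these values are descriptions only.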

How the data were processed

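ATAC-seq libraries of LSK cells were analysed, 20 in 5 genotypes. The authors deposited a table of raw counts per peak and a peak annotation. The submitters' processing notes name mm10, and as tools featureCounts, MACS2, BWA, SAMtools, Picard and Trim Galore, with no versions, roles or settings. Whether reads were shifted for the transposase is not stated. Peaks were shared by all libraries, so every library was counted over the same regions. The sequence used was that of the RefSeq promoter windows and none was read at the peaks.

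From the counts, edgeR 4.0.16 (R 4.3.3) fitted 1 mean per genotype over all 20 libraries with TMM scaling, its expression filter and a robust quasi-likelihood test, adjusted over 123908 peaks or 17775 gene sums with a threshold of 0.05. DESeq2 1.42.0 was an alternative. On counts simulated with the means, library sizes and dispersions of the data, for Idh2 R172K versus WT over 123405 peaks, 74% of peaks changed 2-fold and 28% of those changed 1.5-fold were recovered. Only 50 peaks were changed at each fold there, whereas 53% of tested peaks were called in the data. With so few changes the adjustment for multiple testing is stricter, so these shares are not the recovery in the real comparison. Between 2 libraries of one group, the chi-square per peak, near 1 for counting noise alone, was 1.402 to 2.95 in all pairs except Tet2-/- replicates 3 and 4. That pair was closer to counting noise, at 1.153. The labels describe each library as a pool of 2 mice, and whether the pools of that pair were independent was not tested. Replicate numbers paired Idh1 R132H with WT (correlations of deviations 0.127 to 0.299) and Idh2 R140Q with WT (0.15 to 0.333), and blocked counts stayed at 0 there. The columns of 4 libraries pair Idh1 with the 140Q change in their names and were mapped to Idh2 R140Q, the only genotype with it. Peaks named were the one closest to the start, the highest in WT, and the called ones with the lowest p; the others were chosen after their values were seen. The genes and lists were chosen with earlier results of these data known, and 1 further list is not reported here. Alternatives were other scalings, filters, tests, library subsets, a replicate block and other ways to assign peaks.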

Additional observations from a re-analysis of the deposited data

Results flagged for a closer look

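Of 195 groups of 4 libraries examined, 10 had 1 library far from the others, a rate that chance alone gives in about 1 in 20 groups. In WT, replicate 2 was low at the Tcf7 peaks 35.64 kb (23.53 CPM, others 25.34 to 25.62) and 27.96 kb upstream (2.946 CPM, others 3.452 to 3.548). WT replicate 1 was low at the Bcl11a peak at 225.1 kb (6.942 CPM, others 7.652 to 7.794), and WT replicate 3 at the Notch2 start site (35.68 CPM, others 41 to 42.05). Idh2 R172K replicate 4 was high at the Bcl11a peak at 384.1 kb (15.77 CPM, others 13.53 to 13.73). The same library was low at the Notch1 peak 9.734 kb upstream (29.62 CPM, others 33.12 to 33.8), in the Notch1 sum (179.8 CPM, others 192.7 to 194.9) and in the Notch2 sum (150.9 CPM, others 159.9 to 161.5). Idh2 R172K replicate 1 was high at the Satb1 peak at 136.4 kb (7.424 CPM, others 5.065 to 5.249). Idh1 R132H replicate 1 was high at the Notch2 peak at 88.04 kb (13.12 CPM, others 11.35 to 11.46).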

How the results depend on the processing

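No named peak or gene sum called in the main setting changed sign under any alternative run for it, but the balance of Tet2-/- calls, 4 raised and 8 lowered, turned to 4 and 2 in Xist-low libraries, and those of Notch1 and Satb1 turned with the scaling. For Idh2 R172K versus WT, raised and lowered peaks numbered 15 and 41 with peaks inside the genes only and 18 and 41 with genes taken from the deposited annotation, and the raised count was 34 in Xist-high libraries. Against Idh2 R140Q these were 11 and 42, and 13 and 45, with 56 lowered in Xist-high libraries. Against Tet2-/- they were 11 and 42, 12 and 42, and 26 and 52. For Tet2-/- versus WT they were 0 and 5 under both ways of assigning peaks, 1 and 4 with DESeq2 and 2 and 4 in Xist-high libraries; lowered peaks numbered 5 with a filter of 1 CPM in 4 libraries. Fewer peaks or libraries enter these subsets; the cause of the DESeq2 difference was not tested. Leaving out 1 library gave 0 to 5 raised and 3 to 7 lowered in Tet2-/-, 44 to 53 and 82 to 87 in Idh2 R172K, and 3 to 5 called sums for Idh2 R172K versus Tet2-/-. With library size as the only scaling, Idh2 R172K had 44 raised and 99 lowered, and the median of all peaks was -0.07. With the replicate number as a block, Idh2 R172K versus WT had 57 raised and 89 lowered and Tet2-/- 6 and 11; same-numbered Idh2 R172K and WT libraries correlated at -0.065 to 0.175, so the numbers were not taken as pairs there.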
